A study of Mus musculus with 6 samples.

Results

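The thrombospondins and tenascins, secreted glycoproteins of the extracellular matrix, were followed in joint tissue of Frzb-/- mice, the articular cartilage of the tibia with its subchondral bone. The members are the thrombospondins Thbs1, Thbs2, Thbs3, Thbs4 and Comp and the tenascins Tnc, Tnn and Tnxb, taken as every probe set of the array whose annotation gives one of these symbols alone. This gave 12 probe sets of 8 genes, of 30618 probe sets in all, and of 13817 genes with a probe set of their own. Thbs2 had 3 probe sets, Thbs1 and Tnc had 2 each, and the other 5 genes had 1. A further probe set, shared by a member and another gene, was left out.

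RNA was taken from 6 male mice aged 6 weeks, all on the C57Bl/6J background, and each mouse was measured on its own Affymetrix array. Animals 14 and 17 are the Frzb-/- mice compared here, animal 6 (title 6 in the figures) was also labelled Frzb-/-, and animals 6-1, 8-1 and 9-1 were wild-type. The deletion of Frzb, a secreted antagonist of WNT signaling, is germline and so is carried by every cell of the mouse. The tissue was dissected in a single piece down to the growth plate and holds marrow as well as cartilage and bone. The study dropped a mouse labelled Frzb-/-, without giving its number. That mouse clustered with the wild-type mice, and re-genotyping showed it to be heterozygous. Animal 6 is shown apart, a choice that rests on the values of the arrays. Its Frzb level does not set it apart from animals 14 and 17, and whether it is the heterozygous mouse was not tested.

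Thrombospondins and tenascins are matricellular proteins, which bind collagens, growth factors and cell surface receptors and change how cells attach to the matrix. Thbs1 and Thbs2 form trimers and are known as inhibitors of vessel growth, while Thbs3, Thbs4 and Comp form pentamers and are found in cartilage, bone and tendon. Among the tenascins, Tnc is made around developing joints and in injured or loaded tissue, Tnn (tenascin-W) is found in the periosteum and other stem cell niches of bone, and Tnxb is a protein of loose connective tissue that regulates the spacing of collagen fibrils.

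The sequences before the start sites of the members that differed most and of Thbs3 are shown because they hold letters of motifs that were looked for. These were motifs of factors that act downstream of WNT or mechanical signals, an E-box, and the TATA and GC box letters. The promoters searched are RefSeq sequences of the GRCm38.p6 build, read 5′ to 3′ on the strand of the gene. They cover 6 of the 8 genes, without Thbs1 and Comp (7 promoters, 2 of them overlapping ones of Tnc). Thbs2 is given for chr17:14694263-14694512 and Thbs4 for chr13:92794819-92795068, both on the minus strand and both the 250 bases before the start. Tnn is given for chr1:160153693-160153825 on the minus strand, and Thbs3 for chr3:89215080-89215179 on the plus strand. Tnxb is given for chr17:34670468-34670497 on the plus strand, 30 bases that lie inside the longest annotated extent of the gene. Capitals mark the motif matches.
Thbs2: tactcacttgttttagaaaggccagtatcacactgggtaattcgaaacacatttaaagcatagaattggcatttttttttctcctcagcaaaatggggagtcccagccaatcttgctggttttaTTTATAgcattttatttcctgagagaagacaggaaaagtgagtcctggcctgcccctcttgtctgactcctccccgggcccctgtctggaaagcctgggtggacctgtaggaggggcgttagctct
Thbs4: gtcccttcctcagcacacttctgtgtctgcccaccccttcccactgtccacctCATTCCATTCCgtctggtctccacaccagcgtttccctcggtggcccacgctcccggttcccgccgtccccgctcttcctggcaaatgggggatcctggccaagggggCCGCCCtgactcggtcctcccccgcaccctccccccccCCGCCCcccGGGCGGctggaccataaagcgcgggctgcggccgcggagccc
Tnn: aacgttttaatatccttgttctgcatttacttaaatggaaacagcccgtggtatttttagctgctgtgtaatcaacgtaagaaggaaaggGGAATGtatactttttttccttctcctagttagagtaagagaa
Tnxb: actgacctttacTGAGTCAgttctcacacg
Thbs3: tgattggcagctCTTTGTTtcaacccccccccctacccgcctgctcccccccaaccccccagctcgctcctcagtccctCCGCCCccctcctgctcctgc

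Each motif was searched on both strands of the 250 bases before the start in 32851 promoters. The TCF/LEF letters CTTTGAA (also taken as CTTTGAT and as CTTTGTT), named for the nuclear partners of β-catenin, occurred in 12% of all promoters and in 1 of the 7 member promoters, that of Thbs3, at bases -88 to -82. The AP-1 letters TGANTCA occurred in 6.75% of promoters and in 1 of the 7 member promoters, that of Tnxb, at bases -55 to -49. The TEAD letters CATTCC occurred in 12.6% of promoters, and in Thbs4, at a pair of sites that overlap by 1 base (-197 to -192 and -192 to -187), and in Tnn at bases -160 to -155. TATAAA occurred in 12.4% of promoters and in those of Thbs2 (bases -126 to -121, as TTTATA, its reading on the other strand) and Tnc. The 2 Tnc promoters overlap, so their match is 1 site read from 2 starts, at bases -205 to -200 and -126 to -121. The GC box GGGCGG occurred in 32.7% of promoters and in those of Thbs3, Thbs4 and Tnc, where it was again 1 site shared by the 2 promoters. The E-box CACGTG occurred in 6.02% of promoters and in 0 of the 7 member promoters. A match describes the letters and not a bound site.

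Frzb was low in every array labelled Frzb-/-. At probe set 1416658_at its log2 expression value was 7.02 and 6.42 in Frzb-/- animals 14 and 17, 6.93 in animal 6, and 10.02, 10.79 and 10.16 in wild-type animals 6-1, 8-1 and 9-1. At 1448424_at it was 5.22 and 4.92 in Frzb-/- animals, 5.34 in animal 6, and 8.12, 8.96 and 8.08 in wild-type animals. Animal 6 therefore differed from the wild-type mean by -3.39 at 1416658_at (adjusted p = 0.091) and by -3.05 at 1448424_at (adjusted p = 0.122), close to the log2 fold changes of -3.61 and -3.31 in animals 14 and 17 (adjusted p = 0.000994 and 0.00105).

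Of the 8 genes, 4 were up-regulated in the 2 Frzb-/- mice compared, namely Thbs2, Tnn, Tnxb and Thbs4, by 2.37- to 3.47-fold, and 0 were down-regulated. A probe set passed when limma's moderated test, two-sided and with p-values adjusted by Benjamini-Hochberg over all 30618 probe sets, gave a value under 0.01 and the log2 fold change was above 1 or below -1. By this rule 4 of 12 member probe sets passed as higher and 0 as lower, where 2.34% of all probe sets passed as higher and 5.09% as lower. Counted by genes at their brightest probe set, 4 of 8 members passed as higher, beside 3.03% of all genes higher and 6.02% lower. The median log2 fold change was 0.84 over the member probe sets and 0.02 over all probe sets. Adding animal 6 to the Frzb-/- mice left 0 member probe sets that passed. At each of the 4 that passed without it, the value of animal 6 lay within the wild-type range. All 4 genes that passed are listed in a table of the study, so they were known to differ in these arrays when the members were chosen, and the counts are a description. In whole tissue, more or fewer cells of a type and more or less RNA per cell cannot be told apart.

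Thbs2, a trimeric thrombospondin made by fibroblasts and other mesenchymal cells that limits vessel growth, passed at 1 of its 3 probe sets. At its brightest probe set, 1422571_at, it measured 11.59 and 11.65 in Frzb-/- animals 14 and 17, 9.97 in animal 6, and 10.14, 9.64 and 9.69 in wild-type animals 6-1, 8-1 and 9-1. Both Frzb-/- arrays were more than 1 log2 unit above every wild-type array, and animal 6 lay within the wild-type range. The means were 11.62 ± 0.05 (SD, n = 2) in Frzb-/- and 9.82 ± 0.27 (SD, n = 3) in wild-type mice, a log2 fold change of 1.80 (SE 0.17, 95% interval 1.38 to 2.21, adjusted p = 0.00124) or 3.47-fold. Of the 5 arrays left out in turn, the call was lost without animal 17 (adjusted p = 0.0127), with a log2 fold change of 1.76.

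The other probe sets of Thbs2 gave smaller differences in the same direction, and the mean over its probe sets gave a log2 fold change of 1.29 (adjusted p = 0.00115). At 1450663_at the values were 10.96 and 11.01 in Frzb-/-, 9.57 in animal 6, and 10.40, 9.83 and 9.51 in wild-type animals, a log2 fold change of 1.07 (SE 0.25, adjusted p = 0.0204) that did not pass. At 1447862_x_at the values were 10.83 and 10.81 in Frzb-/-, 9.21 in animal 6, and 9.70, 9.83 and 9.95 in wild-type animals. There the adjusted p was 0.00252, and the log2 fold change of 0.995 lay just under the limit of 1. The Frzb-/- arrays were above all wild-type arrays at each of the 3 probe sets, but wild-type animal 6-1 was the highest of its group at the first pair and the lowest at 1447862_x_at, where animal 6 lay below the wild-type range.

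Tnn, the tenascin of the periosteum, differed about as much as Thbs2 did at its brightest probe set. Its probe set 1442140_at measured 11.35 and 11.52 in Frzb-/- animals 14 and 17, 9.66 in animal 6, and 9.97, 9.38 and 9.65 in wild-type animals 6-1, 8-1 and 9-1. The Frzb-/- arrays were 1.38 above the highest wild-type array, and animal 6 sat at the wild-type mean. The means were 11.43 ± 0.12 (SD, n = 2) in Frzb-/- and 9.67 ± 0.29 (SD, n = 3) in wild-type mice, a log2 fold change of 1.77 (SE 0.19, 95% interval 1.33 to 2.21, adjusted p = 0.00152) or 3.40-fold. This call, too, was lost only without animal 17 among the 5 arrays left out in turn (adjusted p = 0.0152, log2 fold change 1.68).

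Tnxb, whose loss in humans gives a form of Ehlers-Danlos syndrome with lax joints and skin, was higher in Frzb-/- mice at probe set 1450798_at. It measured 9.41 and 9.01 in Frzb-/- animals 14 and 17, 8.09 in animal 6, and 7.60, 8.17 and 7.66 in wild-type animals 6-1, 8-1 and 9-1. The groups did not overlap, and animal 6 lay within the wild-type range. The means were 9.21 ± 0.28 (SD, n = 2) in Frzb-/- and 7.81 ± 0.31 (SD, n = 3) in wild-type mice, a log2 fold change of 1.40 (SE 0.21, 95% interval 0.90 to 1.90, adjusted p = 0.00462) or 2.64-fold. The call rested on most of the arrays, since the adjusted p was 0.0287 without animal 14, 0.0184 without 17, 0.015 without 6-1 and 0.0117 without 9-1, with log2 fold changes between 1.20 and 1.60 over the 5 arrays left out in turn.

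Thbs4, a pentameric thrombospondin abundant in tendon and muscle attachments, was higher in Frzb-/- mice too. Its probe set 1449388_at measured 12.53 and 12.68 in Frzb-/- animals 14 and 17, 11.16 in animal 6, and 11.76, 11.29 and 11.01 in wild-type animals 6-1, 8-1 and 9-1. The groups did not overlap, although wild-type animals alone spread over 0.75 log2 units. The means were 12.60 ± 0.10 (SD, n = 2) in Frzb-/- and 11.36 ± 0.38 (SD, n = 3) in wild-type mice, a log2 fold change of 1.25 (SE 0.22, 95% interval 0.73 to 1.77, adjusted p = 0.00779) or 2.37-fold. The call was lost without animal 14 (adjusted p = 0.033), 17 (0.0553), 8-1 (0.0347) or 9-1 (0.0121).

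**Figure D1:**
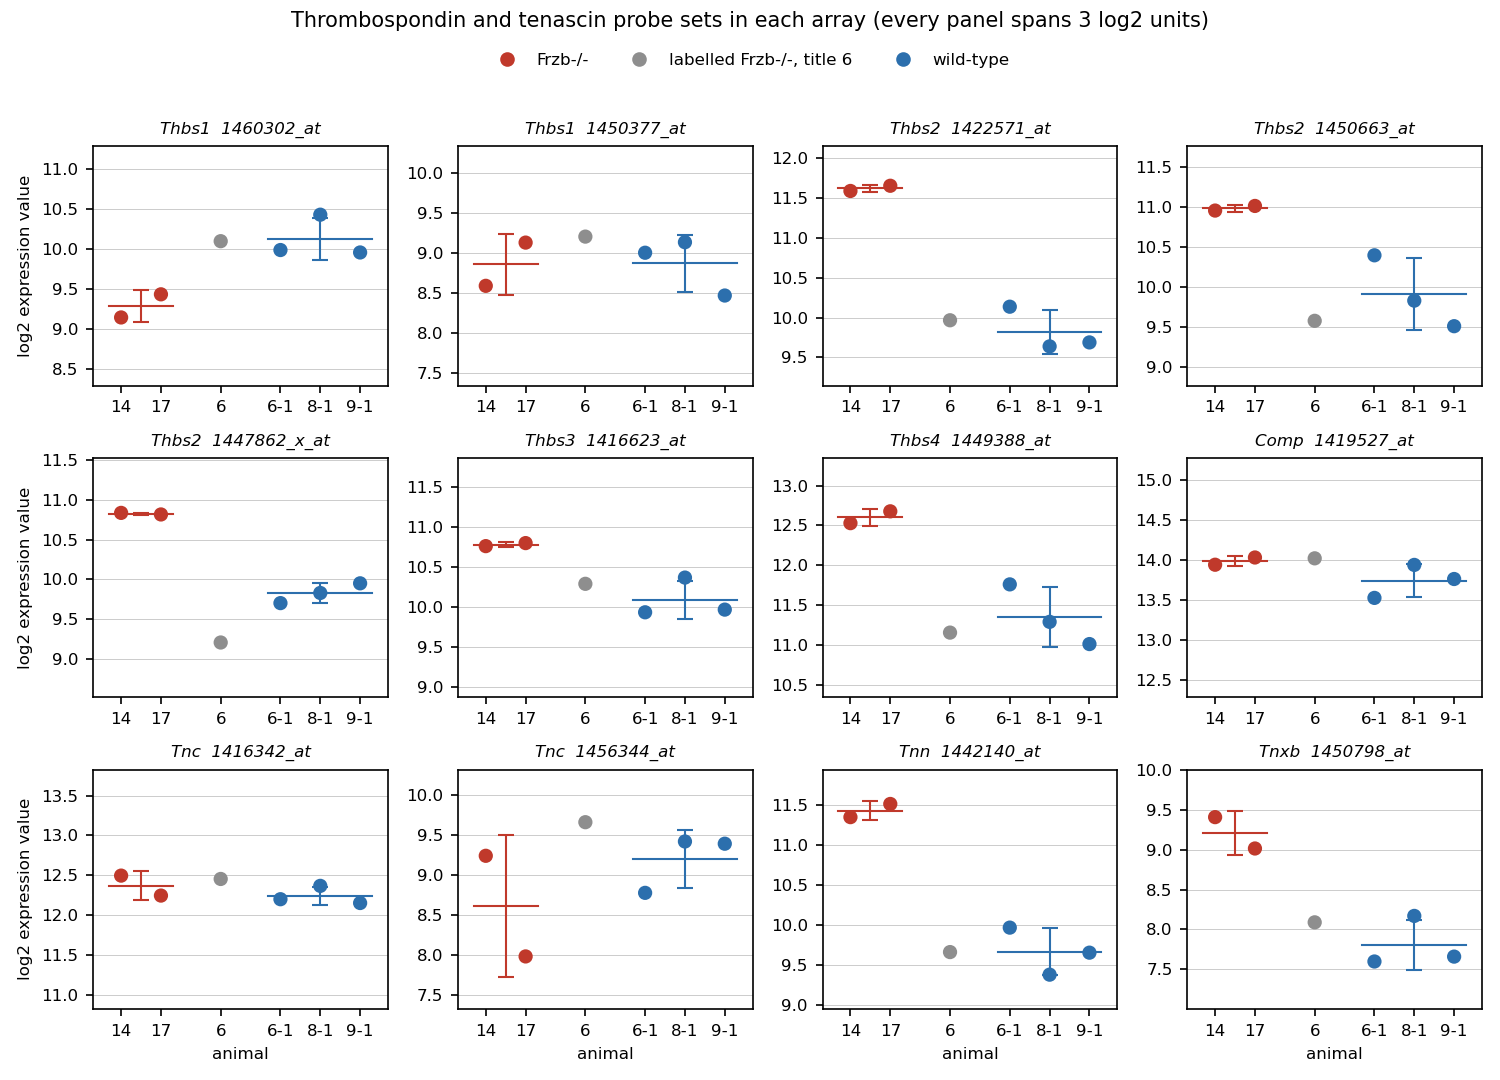
The log2 expression value (y axis) of the 12 member probe sets in each of the 6 arrays (x axis, by animal), with Frzb-/- in red, animal 6 in grey and wild-type in blue. Lines are group means and bars the SD, and every panel spans 3 log2 units. Thbs2, Tnn, Thbs4 and Tnxb are separated between Frzb-/- and wild-type mice with animal 6 near the wild-type arrays, while the groups overlap or nearly touch at Comp and at both probe sets of Tnc.

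The remaining pentamers differed less. Thbs3, which takes part in skeletal maturation, measured 10.76 and 10.80 in Frzb-/- animals, 10.29 in animal 6, and 9.93, 10.37 and 9.97 in wild-type animals at 1416623_at. The groups did not overlap, but the log2 fold change of 0.69 (SE 0.16, 95% interval 0.31 to 1.08, adjusted p = 0.0217) did not pass. Comp, the cartilage oligomeric matrix protein that binds collagens of the cartilage fibril, measured 13.94 and 14.03 in Frzb-/- animals, 14.02 in animal 6, and 13.53, 13.94 and 13.76 in wild-type animals at 1419527_at. The nearest Frzb-/- and wild-type arrays were only 0.00232 apart, animal 6 was as high as the Frzb-/- arrays, and the log2 fold change was 0.24 (SE 0.15, 95% interval -0.11 to 0.60, adjusted p = 0.279). The interval leaves room for up to 0.60 in favour of Frzb-/- mice.

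Thbs1, the platelet and matrix thrombospondin that activates latent TGF-beta and binds CD36 and CD47, gave a different answer at each of its probe sets. At the brighter, 1460302_at, it measured 9.15 and 9.44 in Frzb-/- animals, 10.10 in animal 6, and 9.99, 10.43 and 9.96 in wild-type animals. It was the only member probe set whose Frzb-/- arrays both lay below all wild-type arrays, with a log2 fold change of -0.84 (SE 0.18, 95% interval -1.27 to -0.40, adjusted p = 0.0176) that did not pass. At 1450377_at it measured 8.59 and 9.13 in Frzb-/- animals, 9.21 in animal 6, and 9.01, 9.14 and 8.47 in wild-type animals, so the groups overlapped. The log2 fold change there was -0.01 (SE 0.24, 95% interval -0.59 to 0.57, adjusted p = 0.983).

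Tnc, the tenascin of developing and loaded joint tissue, did not pass at either probe set. At the brighter, 1416342_at, it measured 12.50 and 12.25 in Frzb-/- animals, 12.46 in animal 6, and 12.20, 12.37 and 12.15 in wild-type animals. The log2 fold change was 0.13 (SE 0.14, 95% interval -0.20 to 0.46, adjusted p = 0.522), and the groups overlapped. At 1456344_at it measured 9.24 and 7.98 in Frzb-/- animals, 9.66 in animal 6, and 8.78, 9.42 and 9.39 in wild-type animals. The Frzb-/- animals differed from each other by 1.26 there, more than the log2 fold change of -0.59 (SE 0.37, 95% interval -1.47 to 0.30, adjusted p = 0.293), which became -1.22 without animal 14 (adjusted p = 0.038). Tnr, the tenascin of the nervous system and the remaining gene of the family, had low values at 1436148_at, 3.36 and 3.11 in Frzb-/- animals, 2.89 in animal 6, and 2.87, 3.05 and 2.95 in wild-type animals (adjusted p = 0.17).

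**Figure D2:**
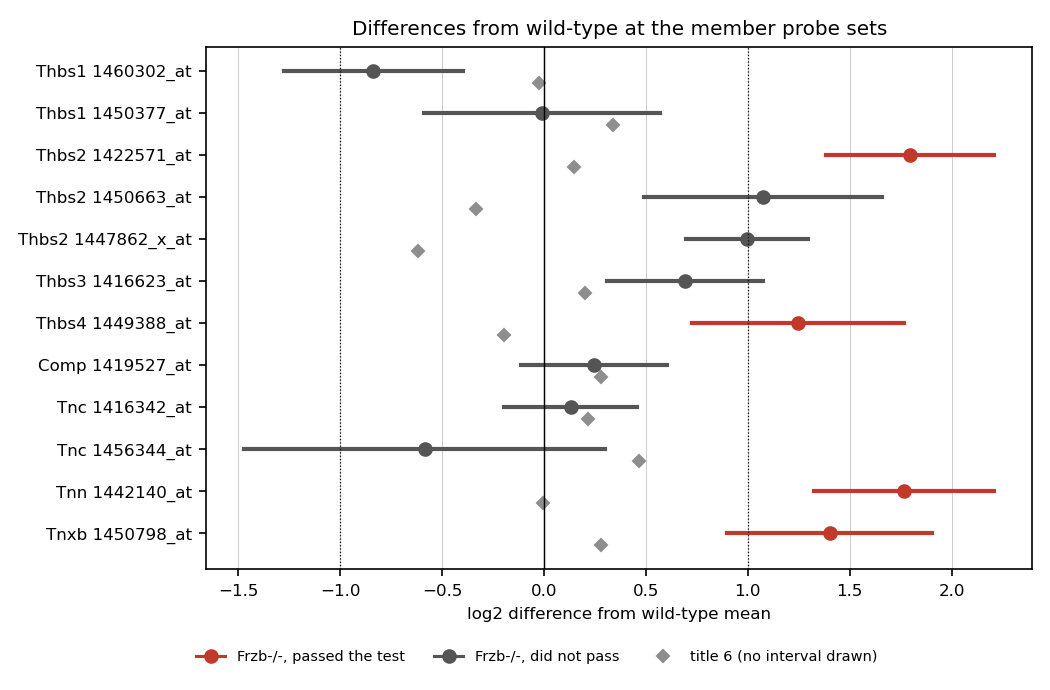
Log2 difference from the wild-type mean (x axis) for each member probe set (y axis). Circles are Frzb-/- animals 14 and 17 with the 95% interval of limma's fit, in red where the probe set passed, and grey diamonds are animal 6. Dotted lines mark the fold limit at -1 and 1. The 4 probe sets that passed lie between 1.25 and 1.80, and animal 6 lies between -0.62 and 0.47 at all 12.

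Over the 12 probe sets, both Frzb-/- arrays lay above all 3 wild-type arrays at 8 and below them at 1, and the groups overlapped at 3. Such separation was frequent in these arrays, at 27.5% of all probe sets above and 28.1% below. At an adjusted p under 0.05 with no limit on the fold change, 7 member probe sets were higher, beside 11.7% of all probe sets, and 1 was lower, beside 14.8%. In animal 6, 7 member probe sets lay within the wild-type range, 4 above it (Comp, both of Tnc and Thbs1 1450377_at) and 1 below it (Thbs2 1447862_x_at). Its differences from the wild-type mean ran from -0.62 to 0.47 with adjusted p of 0.678 or more. In that comparison of a single array with 3, 0 of the member probe sets and 0% of all probe sets passed, where 1 member probe set and 2197 of all had an unadjusted p under 0.05.

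With all 3 arrays labelled Frzb-/- set against the 3 wild-type arrays, 0 of the member probe sets and 0% of all probe sets passed in limma, and 3 member probe sets and 3534 of all had an unadjusted p under 0.05. The log2 fold changes were then 1.25 for Thbs2 1422571_at, 1.18 for Tnn, 1.03 for Tnxb and 0.76 for Thbs4, all with adjusted p between 0.428 and 0.464. The 4 calls therefore hold for animals 14 and 17 against wild-type animals, with animal 6 apart. Because animal 6 was set apart on array values, neither its place near the wild-type arrays nor the calls without it are independent of that choice.

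Leaving out single arrays moved the count of member probe sets that passed as higher. All the calls were lost without animal 17 and some without animal 14, fits that leave a single Frzb-/- array. The log2 fold changes of Thbs2 1422571_at, Tnn, Tnxb and Thbs4 were 1.76, 1.68, 1.60 and 1.17 without animal 17. Without animal 14 they were 1.83, 1.85, 1.20 and 1.32. The count was 3 without 8-1 (Thbs2 1422571_at, Tnn and Tnxb). Without 9-1 it was 3, with Thbs2 1447862_x_at in place of Thbs4 and Tnxb, and without 6-1 it was 4, with Thbs2 1450663_at in place of Tnxb. Over all probe sets, 97 passed as higher without animal 17 and 717 with every array, so the fall without animal 17 was not confined to the members. An ordinary linear model, which does not borrow spread between probe sets, passed 0 of the members and 0 of all probe sets. At an unadjusted p under 0.05 it had 7 member probe sets higher and 1 lower. Of all 30618 probe sets, 9835 were under that limit in either direction. Fold changes moved less than the calls, and those of the 4 probe sets that passed stayed between 1.08 and 1.95 when any of the 5 arrays was left out.

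**Figure D3:**
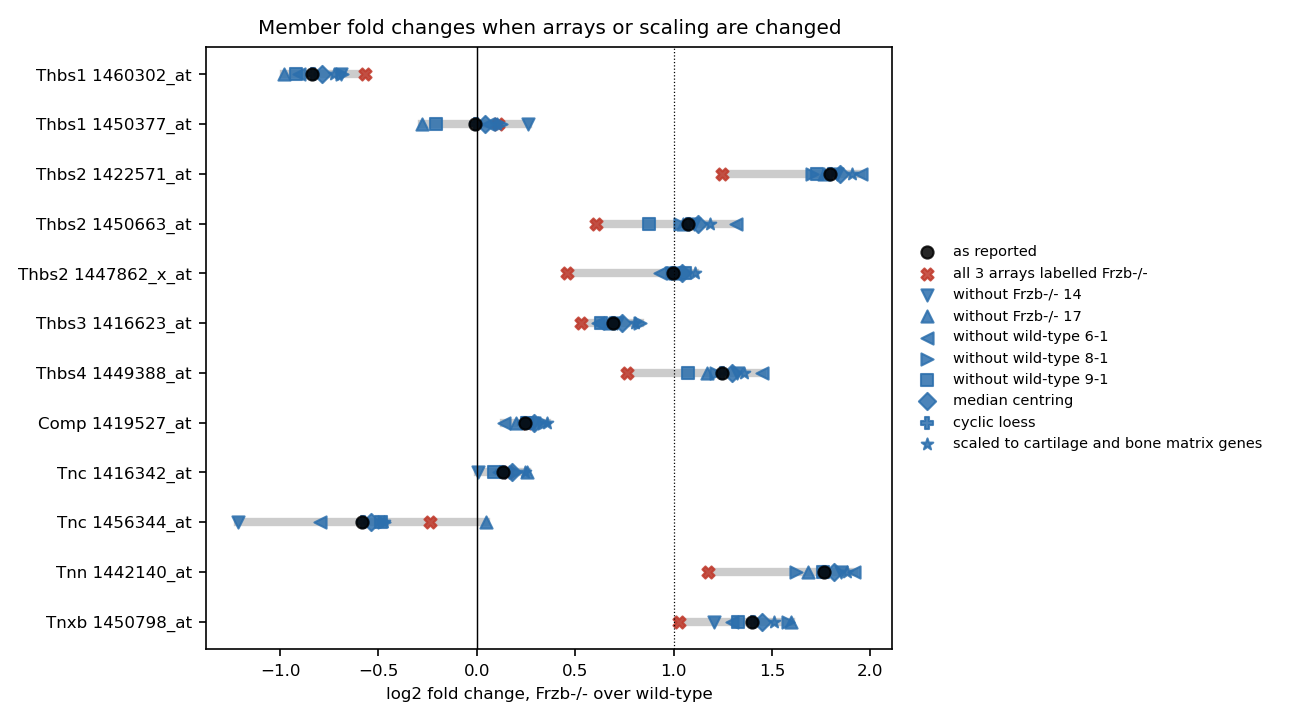
Log2 fold change of Frzb-/- over wild-type (x axis) at each member probe set (y axis) as reported (black), with each array left out or another scaling (blue), and with animal 6 added to the Frzb-/- mice (red crosses). Grey bars span all settings drawn, and the dotted line is the fold limit of 1. Adding animal 6 gave the smallest fold change at Thbs2, Tnn, Thbs4 and Tnxb.

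The proteins that bind thrombospondins and tenascins were mixed. The list of receptors and cell surface partners held 22 genes, of which 4 passed as higher, 1 as lower and 17 did not pass, with a median log2 fold change of 0.53 where the median over all genes was 0.04. Over all genes at their brightest probe set, 3.03% passed as higher and 6.02% as lower, the shares to set beside this list and those below. The 3 with the largest changes were Egfr, the EGF receptor, at 1.64 (adjusted p = 0.00105), Itga4, an integrin chain of leukocytes, at -1.55 (adjusted p = 0.00176), and Itga8, an integrin chain that binds tenascins, at 1.35 (adjusted p = 0.00154). Lrp1, the receptor that takes up thrombospondins into the cell, and Itgb8, which helps to release active TGF-beta, also passed, at 1.08 and 1.02. The brightest receptors were calreticulin (Calr), at 0.15 (adjusted p = 0.376), and Cd47, the receptor of Thbs1, at -0.78, where the adjusted p was 0.00669 and the fold limit was not reached. The list held 3 genes named in the study's tables or figures.

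Among matrix proteins that bind or lie beside the members, 9 of 24 genes passed as higher at their brightest probe set, 0 as lower and 15 did not pass, with a median of 0.71. Counted at any probe set of a gene, 10 passed as higher. For this looser count, here and in the lists below, no share over all genes was taken. Matn4, a matrilin, was higher by 2.31 (adjusted p = 0.000994), Col14a1, a collagen on the surface of fibrils, by 2.26 (adjusted p = 0.000938), and the proteoglycan versican (Vcan) by 1.86 (adjusted p = 0.000938). Col5a1, Col12a1, Matn2, Lum, Postn and Fbln1 also passed. The brightest, Col2a1 of the cartilage fibril and Col1a2 of the bone fibril, had log2 fold changes of 0.03 and 0.18 and did not pass. Of the 24 genes, 9 are named in the study's tables or figures and so are no independent sample.

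Of 17 proteases and inhibitors that act on these proteins or on the same matrix, 4 passed as higher at their brightest probe set, 0 as lower and 13 did not pass, with a median of 0.72. Counted at any probe set of a gene, 7 passed as higher. Adamts12, which cleaves Comp, was higher by 1.48 (adjusted p = 0.00162), the gelatinase Mmp2 by 1.31 (adjusted p = 0.00152) and stromelysin Mmp3 by 1.20 (adjusted p = 0.00234), and the serine protease Htra1 passed at 1.14. The brightest, the gelatinase Mmp9 and the collagenase Mmp13, had values of -0.10 and 0.40 and did not pass.

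Of 22 genes that act upstream of these proteins, in TGF-beta release, mechanical signaling and mesenchymal transcription, 4 passed as higher at their brightest probe set, 0 as lower and 18 did not pass, with a median of 0.58. Counted at any probe set of a gene, 6 passed as higher. The transcription factor Prrx1 was higher by 1.47 (adjusted p = 0.00162), and the latent TGF-beta binding proteins Ltbp4 and Ltbp2 by 1.43 and 1.31 (adjusted p = 0.00166 and 0.00119). Tgfb3, a TGF-beta ligand, passed at 1.04. The brightest, Ltbp3 and Ccn2 (connective tissue growth factor), had values of 0.86 and 0.59 and did not pass. Leaving out single arrays gave 0 to 3 higher receptors, 4 to 8 matrix proteins, 0 to 4 proteases and 0 to 4 upstream genes. The lowest of each came without animal 17, a fit that leaves a single Frzb-/- array. With all 3 labelled arrays 0 genes of these lists passed.

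Markers of several cell types moved with the group in the same arrays. The defining genes of the labelled tissue were present. The level of the cartilage list (8 genes, log2 of the mean linear value) was 12.77 to 12.98 in Frzb-/-, 13.21 in animal 6 and 12.77 to 13.18 in wild-type mice, and 0 of its genes passed. The bone list (6 genes) was at 12.93 to 13.07 in Frzb-/-, 13.06 in animal 6 and 12.78 to 12.91 in wild-type mice, and 0 of its genes passed. Such levels weigh the brightest genes of a list most. As a mean of log2 values the bone list was 11.97 and 11.65 in Frzb-/- animals 14 and 17. It was 12.15 in animal 6 and 11.79, 11.97 and 11.78 in wild-type mice, so the groups overlapped by that measure. Fibroblast markers were at 10.56 to 10.82 in Frzb-/-, 9.37 in animal 6 and 9.00 to 9.37 in wild-type mice, with 5 of 7 genes higher (6 at any probe set), but 1 without animal 14, 17 or 8-1. Pi16 went the other way, at -0.89 (adjusted p = 0.00887), short of the fold limit. Col14a1 is in both the fibroblast and the matrix list. Smooth muscle markers were at 11.63 in both Frzb-/- mice, 10.42 in animal 6 and 10.51 to 10.99 in wild-type mice, with 3 of 8 genes higher (4 at any probe set), but 0 without animal 17. Tendon markers were at 11.97 to 12.03 in Frzb-/-, 11.52 in animal 6 and 11.27 to 11.49 in wild-type mice, with 0 of 5 genes past the test and 2 without 6-1. Fmod, the brightest of them, weighs most in that level. As a mean of log2 values the tendon list was 9.67 and 9.82 in Frzb-/- animals 14 and 17. By that measure animal 6, at 8.74, lay within the wild-type range of 8.56 to 9.12. Kera and Tnmd of this list had log2 fold changes of 1.57 (adjusted p = 0.0346) and 1.48 (adjusted p = 0.0179), as large as those of the members that passed, and the other 3 lay between 0.48 and 0.52. Of the adipocyte markers 1 of 2 was higher (Adipoq), a call that held only without 6-1 among the 5 arrays left out in turn, while 0 of 7 endothelial, 0 of 7 skeletal muscle, 0 of 5 osteoclast and 0 of 5 macrophage markers passed. Endothelial levels were still apart, at 9.10 to 9.19 in Frzb-/-, 8.50 in animal 6 and 8.34 to 8.77 in wild-type mice. Their log2 fold changes ran from 0.04 to 1.10, with a median of 0.47. Adipocyte levels were 12.80 to 12.86 in Frzb-/-, 11.56 in animal 6 and 11.66 to 12.21 in wild-type mice. Macrophage levels were 10.76 to 10.93, 10.64 and 10.56 to 10.66 in the same order. Skeletal muscle markers were present at 13.89 to 14.20 in Frzb-/- and 13.60 to 14.16 in wild-type mice, with animal 6 below both at 13.06. The part of these cells in the values of Thbs2, Thbs4, Tnn and Tnxb was not tested.

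Marrow markers moved the other way. Erythroid markers were at 8.99 to 9.46 in Frzb-/-, 11.72 in animal 6 and 11.35 to 11.81 in wild-type mice (4 of 5 genes lower). Neutrophil markers were at 11.54 to 12.02 in Frzb-/-, 13.61 in animal 6 and 13.40 to 13.81 in wild-type mice (8 of 8 lower, but 2 without animal 17 and 5 without 8-1), and B cell markers were lower at 3 of 6 genes (2 without 8-1). Platelet markers, of the cells that store Thbs1 in their granules, were at 8.89 to 10.02 in Frzb-/-, 11.52 in animal 6 and 11.30 to 11.66 in wild-type mice, with 4 of 6 genes lower (Pf4, Ppbp, Gp1bb and Gp9). This count was 1 without any one of the wild-type arrays, 2 without animal 17 and 6 without animal 14. Platelet markers followed the order of the groups seen at Thbs1 1460302_at, including animal 6 among the wild-type arrays, as erythroid and neutrophil markers did. Both Frzb-/- arrays lay below all wild-type arrays at 28.1% of all probe sets. Within Frzb-/- mice the platelet level was higher in animal 14 (10.02) than in 17 (8.89). Thbs1 1460302_at was lower in animal 14 (9.15) than in 17 (9.44). The part of platelets in the Thbs1 value was not tested. With every array set relative to 9 bright matrix genes of cartilage and bone, the log2 fold changes were 1.91 for Thbs2, 1.88 for Tnn, 1.51 for Tnxb and 1.36 for Thbs4. This scaling adds the same amount to the fold change of every probe set, and the median over all probe sets was 0.13.

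**Figure D4:**
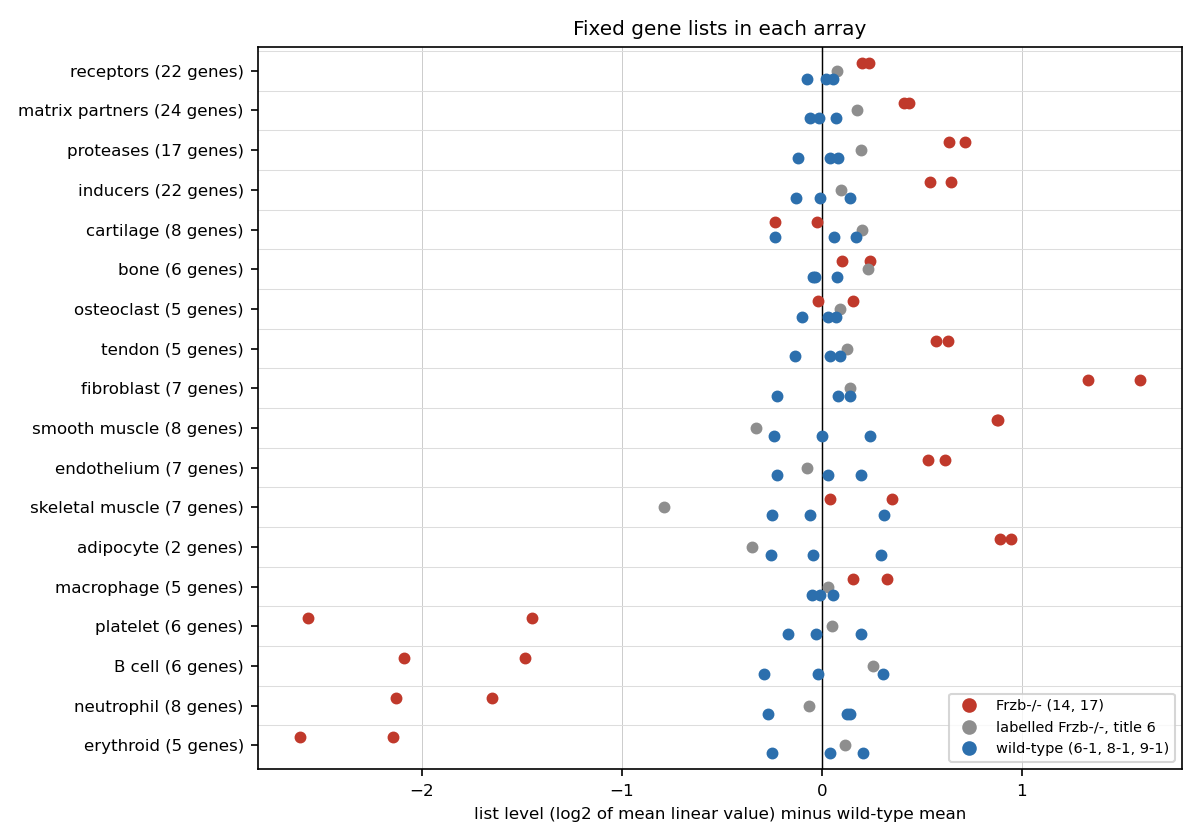
Level of each fixed gene list in each array, as log2 of the mean linear value minus the wild-type mean (x axis), for the pathway lists and the cell type marker lists (y axis, with the number of genes). Frzb-/- is red, animal 6 grey and wild-type blue. Fibroblast, smooth muscle, tendon, endothelial, adipocyte and, by less, macrophage markers lie to the right in Frzb-/- mice. Platelet, B cell, neutrophil and erythroid markers lie to the left. In these lists animal 6 lies nearer the wild-type arrays than the Frzb-/- arrays.

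The genes whose pattern over the 6 arrays was most like that of each member, read at its brightest probe set, were found from the root mean square difference of log2 values. Each value was centred on the mean of its probe set. Thbs2 at 1422571_at and Tnn were each other's nearest gene of the 13817, at 0.0893. The other probe sets of Thbs2, with smaller fold changes, were not used as a start of the search. The distance includes the shift between the groups, by which both had passed with log2 fold changes of 1.80 and 1.77. The next nearest to Thbs2 were Nox4 and B3galt2, at 0.111 and 0.113, and the next nearest to Tnn were Cpxm1 and Ptn, at 0.137 and 0.142. Thbs4 was nearest to Ghr, Adipoq and Deptor, at 0.0534 to 0.0682, and Tnxb to Cdon, Col4a5 and Cilp2, at 0.0551 to 0.0706. The nearest genes of Thbs3 were Zbtb20, Zfp354c and Armh4, those of Thbs1 were Parvg, Fgd4 and Pi16, those of Comp were Dipk2a, Inpp1 and Fbxo11, and those of Tnc were Polr3k, Macf1 and Ago3. These distances are small for flat genes whatever their pattern, so they are not compared between members.

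Mtx1 and Atf6b, genes beside Thbs3 and Tnxb, had smaller differences than these members. Neither of them passed, and of the members beside them Tnxb passed and Thbs3 did not. Mtx1, which encodes a protein of the outer mitochondrial membrane, starts beside Thbs3 and measured 10.45 and 10.37 in Frzb-/-, 10.46 in animal 6, and 10.31, 10.35 and 10.45 in wild-type mice, a log2 fold change of 0.04 (adjusted p = 0.832). Atf6b, a transcription factor of the stress response of the endoplasmic reticulum, lies beside Tnxb and measured 7.37 and 7.36 in Frzb-/-, 7.57 in animal 6, and 7.53, 7.85 and 7.61 in wild-type mice, a log2 fold change of -0.30 (adjusted p = 0.147). Whether these values differ from those of Thbs3 and Tnxb was not tested.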

How the data were processed

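Total RNA of 6 mice, 1 array per mouse, was hybridised to Affymetrix mouse genome arrays. Expression values on the log2 scale were deposited by the authors, who computed them by RMA (background correction, quantile normalization and summary of probes) with affy version 1.20.0, per the submitters' processing notes. Quantile normalization gives all arrays nearly the same distribution (medians 7.32 to 7.45), so every value is relative to the other genes of its array. No detection calls were used. Arrays have no read depth, and the number of mice limits the precision. The p-values rest on the spread between these mice, which limma moderates by that of the other probe sets (3.9 prior degrees of freedom). The study states that probe sets with no present call were removed.

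All 30618 probe sets were fitted with limma 3.58.1 (lmFit and eBayes, two-sided) in R 4.3.3, animals 14 and 17 against 3 wild-type mice, with Benjamini-Hochberg adjustment. The thresholds (adjusted p under 0.01, and a log2 fold change above 1 in size) follow the study's methods. Animal 6 was compared with wild-type mice in a fit with 3 groups. Genes came from the platform annotation: 25090 probe sets had 1 symbol, 677 several and 4851 none. In gene lists the brightest probe set stood for a gene. Named are all members, up to 3 genes per list with the largest change that passed, its 2 brightest, and the 3 genes most like each member. Other list genes, named to complete small counts, were chosen after their values were seen. The members and lists were chosen with earlier results of these data known.

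Alternatives were all 3 labelled arrays, each array left out, median centring, cyclic loess, scaling to matrix genes, probe sets above the median, trended and robust or no moderation, animal 6 as its own group, another threshold and averaging the probe sets of a gene. Python 3.11.15 with pandas 2.3.3, numpy 2.4.6 and matplotlib 3.10.9 drew the figures and wrote the tables.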

Additional observations from a re-analysis of the deposited data

How the results depend on the processing

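The 4 member probe sets and 4 member genes that passed as higher became 0 and 0 with all 3 arrays labelled Frzb-/-. In that fit 3 member probe sets and 3534 of all had an unadjusted p under 0.05. Both counts were also 0 in an ordinary linear model without moderation, which passed 0 of all probe sets in either direction. There 7 member probe sets were higher at an unadjusted p under 0.05, where 9835 of all were under it in either direction. The cause was not tested. Leaving out 1 array gave 0 to 4 probe sets and 0 to 3 genes, the lowest without animal 17. At an adjusted p under 0.05 with no fold limit, 7 member probe sets were higher and 1 lower, by the threshold's own construction. Thbs1 1450377_at turned sign with all 3 labelled arrays (0.11), median centring (0.0398) and scaling to matrix genes (0.10), and ran from -0.28 to 0.26 with single arrays left out. Tnc 1456344_at ran from -1.22 to 0.0445 with single arrays left out, and Tnc turned to -0.23 with the mean over its probe sets. Scaling to matrix genes passed 1228 probe sets as higher and 1505 as lower, against 717 and 1558 as deposited. It adds a shift common to all probe sets of an array, for which limma's prior degrees of freedom were infinite, so its p-values are not set beside the others. No paired analysis was possible because the groups share no replicate numbers. With 2 Frzb-/- mice, intervals for members that did not pass remained wide, up to -1.47 to 0.30 at Tnc 1456344_at.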
